A study of Mus musculus with 2 samples.

Results

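CTCF peaks whose summit lay on a soft-masked base of the mouse genome, away from gene starts and coding sequence, numbered 13635. They were 19.002% of the 71756 peaks on chromosomes 1 to 19 of the optimal list, which held 73465 peaks in all. A peak was kept when its summit was lower case in the mm10 sequence, more than 1 kb from every annotated transcription start site (TSS, GENCODE M21) and outside coding sequence and untranslated regions. The same conditions with an upper-case summit base gave 39906 unmasked distal peaks, with which they are compared. The series has 1 group. ChIP-seq, the sequencing of DNA recovered with an antibody, was made with an antibody to CTCF on intestines of B6NCrl mice at postnatal day 0, with 2 biological replicates. Each sample was powdered tissue combined from several dissections, both replicates carry the same biosample and donor labels, and sex was not collected. Differences between replicates therefore need not include differences between animals, and in whole tissue no peak can be given to a cell type.

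CTCF recognises a long DNA motif with its row of zinc fingers. At such sites it halts the cohesin complex as that extrudes chromatin loops, and it separates domains from each other. Mammalian genomes hold many copies of transposable elements, and in rodents members of the B2 family of short interspersed elements are known to carry a CTCF motif. Soft masking marks sequence that occurs often or is of low complexity. The files used here name no repeat family, so copies were recognised from their own sequence and are given by number.

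The label "inside masked repeats" held for only some of these peaks. The mask of the copy of mm10 used here covered 33.5% of the known bases of chromosomes 1 to 19, and the masked run at a peak summit had a median length of 64 bases (10th to 90th percentile 23 to 219). Within 50 bases of the summit a median of 72 bases were masked. In 2293 peaks this whole window was masked, and in 1125 peaks at most 25 bases of it were, a stretch little longer than the 19-base motif. In 10208 of the 12397 masked peaks with a motif (82.3%) the mask covered all 19 motif bases. Whether the masking picked up the motif word itself was not tested. For this reason the peaks are called masked peaks below, and signal, motif share, bound share and recurrent sequence are also given by the depth of masking.

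The 12 strongest masked peaks show what the upper end of the set looks like. They are printed in motif orientation because each carries a CTCF motif. The 19 motif bases are in capitals and 5 bases on each side in lower case. In each peak the 31-base word centred on the summit occurs once in the assembly. That word need not contain the motif. In 3 of the 12 the mask covered all 19 motif bases.
Fpgs intron: gtgagTCACCACAAGGGGGCGCTGctcca
Snhg7os: agatgTGGACAGTAGGTGGTGCTGtaggg
Gm13056: ttaggCAGCCACCAGGGGGCAGCAgaggc
Dhx35: cctatTGGCCAGCAGAGGGCAGCAcagta
Ethe1 intron: ctggcTGACCACTAGGCGGCAGTGcaggc
Tspan15: gcataTGGCCGTTAGGTGGCGCTGtctcc
2300002M23Rik: gagttTCACCACTAGAGGGCAGACtctgc
Gm4131 intron: cctgtCTGTCACCAGAGGGCAGCTctccc
Tpcn2 intron: tgatcTGTCCAGCAGAGGACAGCAgagct
Phc2 intron: cccatTGTCCAGCAGAGGGCAGCAgggac
Tmem189 intron: aggccCTGCCACGAGATGGCAGCAtgcac
Tcp11l1 intron: caagaTGGCCAGCAGAGGGCAGCAgagcc

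The strongest masked peak stood at chr2:32689380-32689815 (mm10) in an intron of Fpgs, which encodes the enzyme that adds glutamates to folates, 1.767 kb upstream of a start site of that gene. Its signal, the enrichment value that the authors deposited for each peak, was 705 in the optimal list. In the replicates' own lists it was 353 in replicate 1 and 358 in replicate 2, and its rank among all optimal peaks of chromosomes 1 to 19 was 10. The peak at chr7:24600925-24601328 in an intron of Ethe1, a mitochondrial sulfur dioxygenase, had a signal of 623 in the optimal list. Another at chr4:128711366-128711756 in an intron of Phc2, a Polycomb protein, had 612. The peak at chr2:167685162-167685501, in an intron of Tmem189 and 3.576 kb upstream of Cebpb, a transcription factor of inflammation and differentiation, had 603. Over all 12 the signal ran from 599 to 705 in the optimal list, from 294 to 353 in replicate 1 and from 300.1 to 358 in replicate 2. All 12 were in the conservative list, 7 were intronic, and none belonged to a recurrent sequence group (defined below). Between 20 and 39 bases of the window around their summits were masked. Of the 100 strongest masked peaks all 100 had a motif, 6 were in a recurrent group, and 93 had at most 50 masked bases in the window. Only 35 of the 1000 strongest optimal peaks were masked peaks, and 675 of those 1000 were distal.

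Masked peaks were weaker than unmasked distal peaks. Their median signal was 49.97 (10th to 90th percentile 21.1 to 206, range 4.56 to 705), against 103 in unmasked distal peaks (23.7 to 406, range 4.48 to 756). Of the masked peaks 33.0% lay above the median of all distal peaks, against 55.8% of the unmasked ones. The difference was -22.9 percentage points, with a log10 adjusted p of -470 (two-sided Fisher's exact test, Benjamini-Hochberg adjustment over 6 tests). The masked share was lower on 19 of 19 chromosomes. Peaks are not independent samples, so the count of chromosomes is given beside each of the 6 tests, and each p describes these peaks of 1 pooled experiment. In replicate 1 the median signal was 25.1 for masked and 52.4 for unmasked peaks, and in replicate 2 it was 26.6 for masked and 55.2 for unmasked peaks. The lists give no read counts, so sequencing depth is unknown, and all intervals cover the counting of peaks or motifs alone.

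**Figure D1:**
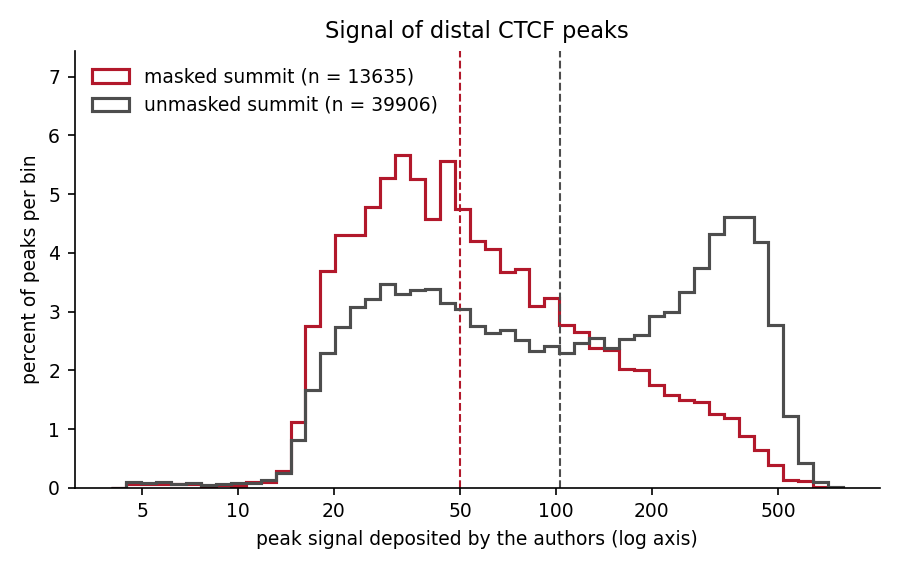
Distribution of the deposited peak signal (log axis) for 13635 distal peaks with a masked summit and 39906 with an unmasked summit, as percent of each set per bin; dashed lines are the medians, 49.97 and 103. Unmasked peaks form a second hump at high signal that the masked peaks lack.

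Signal was lower at each step of deeper masking. The 1125 peaks with 1 to 25 masked bases in the window had a median signal of 102, close to that of all unmasked distal peaks. The median was 70.1 at 26 to 50 masked bases, 55.4 at 51 to 75 and 45.8 at 76 to 100. In the 2293 peaks masked over the whole window it was 34.1 (10th to 90th percentile 18.5 to 95.01), and 14.4% of these lay above the median of distal peaks. Unmasked summits showed a like difference: the 13035 of them with some masked base in the window had a median signal of 76.3, and the 26871 with none had 124. These are descriptions of the peaks' surroundings, with no test.

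Masked peaks carried a CTCF motif more often than unmasked ones. The motif was a 19-base matrix trained on even-numbered chromosomes, from their 5000 strongest peaks. A match counted when it lay within 100 bases of the summit and scored as high as the best 5% of windows 1 kb away. A motif was found in 90.9% of masked peaks (12397 of 13635, 95% Wilson interval 90.4% to 91.4%), against 74.3% of unmasked distal peaks (29661 of 39906, 73.9% to 74.8%). The difference of 16.6 percentage points (15.9 to 17.2) had a log10 adjusted p of -414 by Fisher's exact test, and the masked share was higher on 19 of 19 chromosomes. The share in masked peaks was 77.9% where 1 to 25 bases of the window were masked and 95.9% where all were. Among unmasked summits it was 77.5% with some masked base and 72.8% with none. The mask and the motif cover the same bases in most masked peaks, so the share is not independent of how the mask was made.

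The gap in motif share was widest among weak peaks. In the weakest decile of distal peaks 79.6% of masked and 42.1% of unmasked peaks had a motif. In the strongest decile these shares were 99.3% and 96.8%. Over the same deciles the share of summits that were masked was between 33.1% and 35.3% in the 5 weakest, near the 34.8% of distal bases that are masked, and 5.30% in the strongest. Over all distal peaks 25.5% of summits were masked (25.1% to 25.8%), below the share of masked bases on 19 of 19 chromosomes. The median motif score, a log-odds sum, was 16.4 in masked and 15.7 in unmasked peaks. A higher score went less closely with a stronger peak among masked peaks (Spearman rho across peaks 0.28) than among unmasked peaks (0.46). Masked peaks with a motif had a median signal of 52.9, against 160 in unmasked peaks with a motif. Without a motif the medians were 31.3 in masked and 39.5 in unmasked peaks.

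**Figure D2:**
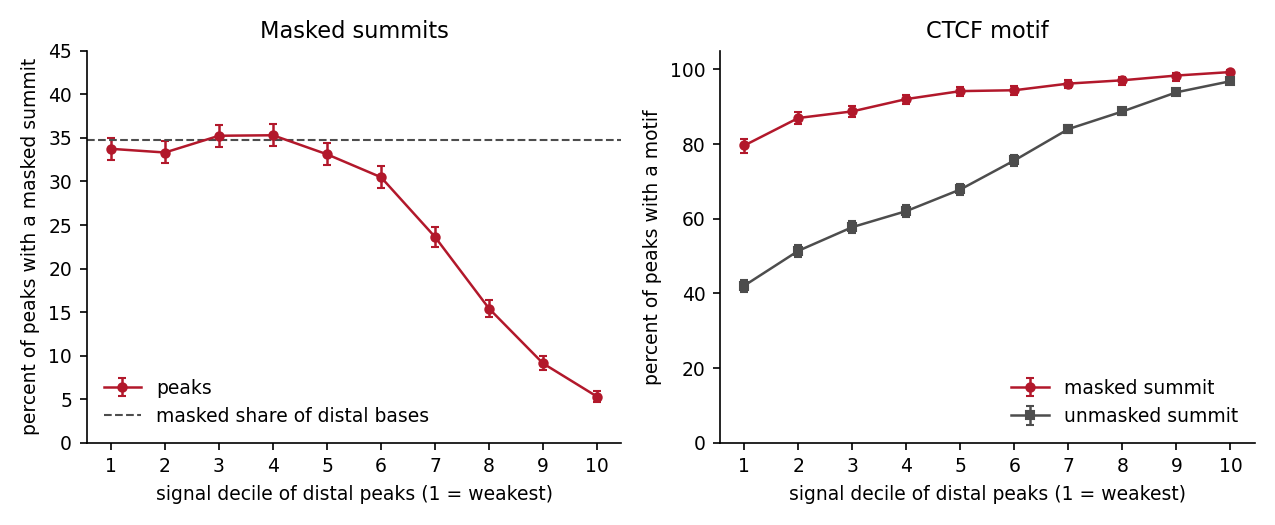
Left, the percent of distal peaks with a masked summit in each decile of signal, with the masked share of distal bases (34.8%) dashed; right, the percent of peaks with a motif for masked and unmasked summits, with 95% Wilson intervals. The masked share falls to 5.30% in the strongest decile, and the motif shares of the masked and unmasked sets approach each other there.

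Most motifs of the genome, masked or unmasked, had no peak, and the bound share of masked ones varied with the depth of masking. Across the distal sequence of chromosomes 1 to 19, 149520 motif matches lay in masked and 172174 in unmasked sequence, which is 196 per Mb masked and 121 per Mb unmasked. A match counted as bound when an optimal summit lay within 100 bases of its centre. Of the masked matches 9.23% were bound, against 17.5% of the unmasked ones. The difference was -8.27 percentage points (log10 adjusted p -1035, Fisher's exact test), and the masked share was lower on 19 of 19 chromosomes. Without matching for motif score, the gap was narrower once completely masked windows were left out. Where the whole window around the motif was masked, 3.10% of 79632 matches were bound, while 18.3% of 23459 matches were bound where 51 to 75 bases were masked. Leaving out the completely masked ones gave 16.2% for masked and 17.5% for unmasked matches, a difference of -1.28 points (log10 adjusted p -13.6, Fisher's exact test). These shares are not matched for motif score. The median score was 11.4 to 12.6 over the depths of partial masking and 11.3 in unmasked matches. The bound shares by score given below were not split by masking depth.

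**Figure D3:**
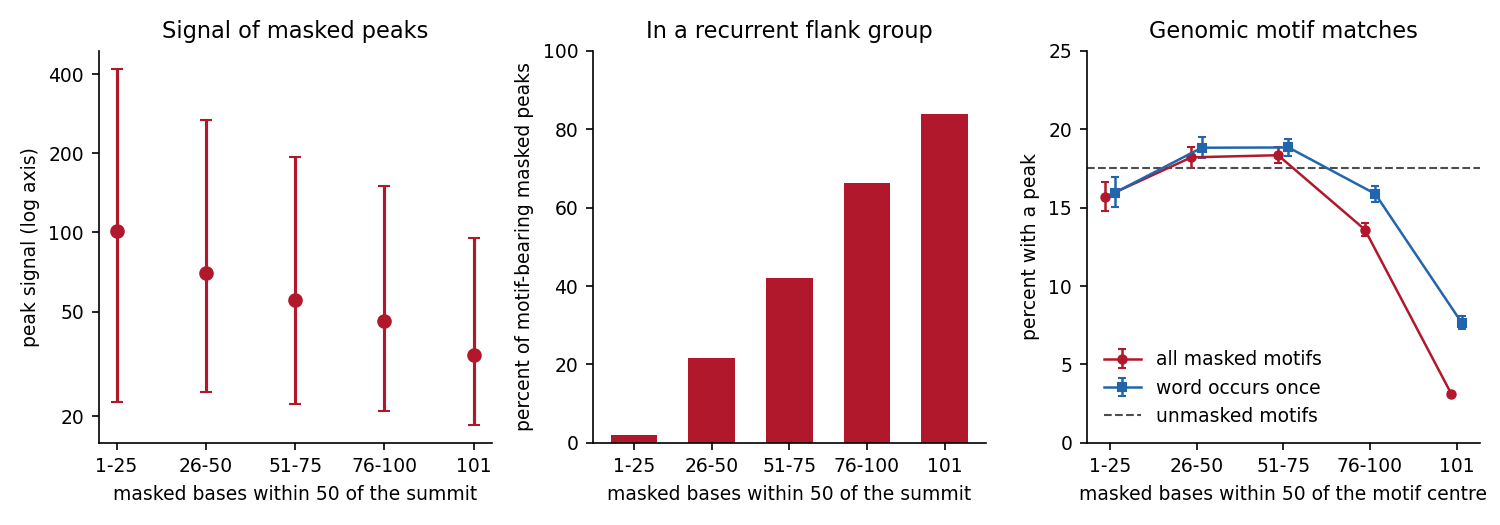
Left, median signal of masked peaks (bars from the 10th to the 90th percentile, log axis) by the number of masked bases within 50 bases of the summit; middle, the percent of motif-bearing masked peaks in a recurrent flank group; right, the percent of masked genomic motif matches with a peak (95% Wilson intervals), with the unmasked share (17.5%) dashed. Signal is lower and group membership higher at each step of deeper masking, and the bound share drops to 3.10% in completely masked windows.

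Repeated sequence also limits where short reads can be placed. The 31-base word centred on the motif occurred once in the assembly for 49.97% of masked and 96.7% of unmasked matches. Among matches with such a word 15.4% of the masked and 17.9% of the unmasked were bound, and among the others 3.11% of the masked and 5.18% of the unmasked were. Against the list from pooled alignments, which was not thresholded, the order turned, with 32.0% of masked and 29.3% of unmasked matches with such a word bound. In completely masked windows the matches with such a word were bound in 7.64% of cases. The sources used here do not say how reads that fit several places were treated, and the part of such reads in the result was not tested.

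In each bin of motif score from 8 to 24 a smaller share of masked than of unmasked matches was bound. At scores of 14 to 16 the bound share was 9.32% of 37442 masked matches and 37.0% of 15219 unmasked matches. At scores of 18 to 20 it was 55.4% of masked and 86.4% of unmasked matches. With words that occur once these shares were 21.5% masked and 38.1% unmasked at 14 to 16, and 63.5% masked and 89.2% unmasked at 18 to 20. The intervals of the masked and unmasked shares did not overlap in any of these bins. At scores of 22 to 24 the intervals over all matches did overlap. There 92.9% of 226 masked matches (88.8% to 95.6%) and 96.3% of 1040 unmasked matches (95.02% to 97.3%) were bound. With words that occur once they did not overlap at these scores. The bound share was then 94.1% of 220 masked (90.2% to 96.5%) and 98.3% of 1000 unmasked matches (97.3% to 98.9%). At scores of 24 to 26 all 12 masked matches were bound, against 96 of 99 unmasked matches.

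**Figure D4:**
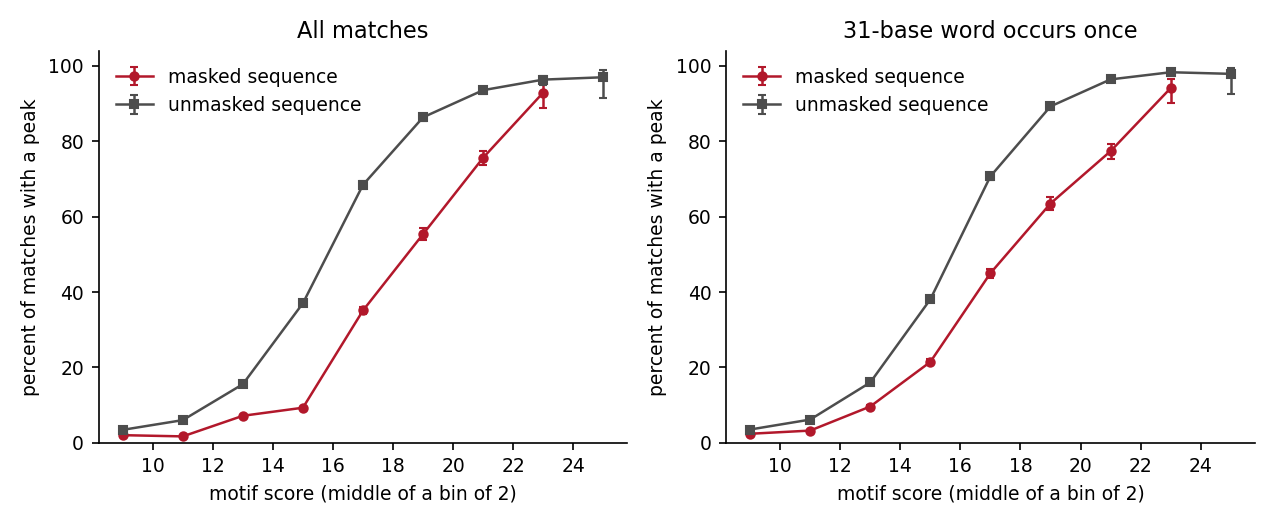
Percent of distal genomic motif matches with an optimal summit within 100 bases, by motif score in bins of 2, for masked and unmasked sequence with 95% Wilson intervals; bins under 20 matches are not drawn. Masked matches lie lower at the same score for all matches (left) and for those whose 31-base word occurs once (right), and the lines approach each other at the highest scores.

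The same flanking sequence recurred among masked peaks. To find them, the 40 bases on each side of the motif were compared position by position, without gaps, and peaks alike at 60% or more of these 80 bases were gathered around the peak with the most matches. Of the 12397 masked peaks with a motif, 6230 (50.3%) fell into 15 groups of at least 50 peaks. Among the 29661 unmasked distal peaks with a motif 505 (1.70%) fell into 4 groups. The share in a group was 1.94% of motif-bearing masked peaks with 1 to 25 masked bases in the window and 83.9% of those masked in full. Peaks in a group had a median signal of 46.2, against 63.6 for the 6167 masked peaks in none. Groups 1 to 10 each had peaks on all 19 chromosomes.

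The first 4 groups are shown by their strongest peak, the peak at the centre of the group and the weakest peak, which differ in signal. The strongest peaks matched the flanks of their centre at 61.25% of bases in group 1 and at 60% in groups 2, 3 and 4. These values lie near the limit of 60%. The weakest peaks matched at 92.5% in group 1, 62.5% in groups 2 and 3, and 66.25% in group 4. Capitals mark the motif.
Group 1, strongest, Gsta4 intron: cccatATGCCAGAAGAGGGCATCAgttcc
Group 1, centre, Aldh9a1 intron: cagacACCCCAGAAGAGGGCATCGgatcc
Group 1, weakest, Dmc1 intron: cagatACACCAGAAGAGGGCATCGgatcc
Group 2, strongest, Pla2g7 intron: cagagAGGCCAGCAGAGGGCGACAgatct
Group 2, centre, Amz2 intron: cacagAGGACAGAAGAGGGTGCAAgatcc
Group 2, weakest, intergenic: tagagAGACCAACAGAGGGCATCAgatcc
Group 3, strongest, near Rexo2: ttcagAGTCCAGAAGAGGGCACCAgatcc
Group 3, centre, Pde3a intron: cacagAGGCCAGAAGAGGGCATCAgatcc
Group 3, weakest, Smurf1 intron: catggAGACCAGAAGAAGGTGCTAgattt
Group 4, strongest, near Gm6018: taagcAAGCCAGTAGGTGGTGTCAgatcc
Group 4, centre, intergenic: tgaggAGGCCAGAAGAGGGTGTCAgatcc
Group 4, weakest, Ppp2r3a intron: tgaggAGGACAGTAGAGGGCATAAgatcc

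Group 1 was the most numerous and among the weakest. Its 2212 peaks had a median signal of 33.7 (10th to 90th percentile 18.4 to 100), and the median peak was masked over its whole window. A single-copy word at the summit was present in 56.7% of them, against 94.4% of the masked peaks in no group. Summits in group 1 lay a median of 12 bases downstream of the motif centre in motif orientation, against 5 bases for peaks in no group. The strongest peak, at chr9:78193958-78194260 in an intron of Gsta4, a glutathione S-transferase, had a signal of 427 in the optimal list, 204 in replicate 1 and 224 in replicate 2. The central peak, at chr1:167351591-167351900 in an intron of Aldh9a1, had 16.4 in the optimal list and 9.80 in replicate 1, and had no summit within 50 bases in the list of replicate 2. The word centred on its summit occurred 97 times in the assembly. The weakest, at chr15:79569331-79569640 in an intron of Dmc1, a recombinase of meiosis, had 4.56 and no match in either replicate list. In both of these peaks the printed motif lay well to one side of the summit. The central peak had its motif at 167351659 to 167351677 and its summit at 167351746. For the weakest the motif was at 79569388 to 79569406 and the summit at 79569486.

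Group 2 held 1807 peaks with a median signal of 61.2 (26.04 to 195), nearly that of masked peaks in no group. Of these 89.4% had a single-copy word at the summit. The strongest, at chr17:43606735-43607040 in an intron of Pla2g7, an enzyme that breaks down platelet-activating factor, had a signal of 515 in the optimal list, 260.0 in replicate 1 and 257 in replicate 2. The central peak, at chr11:109441217-109441475 in an intron of the metalloprotease gene Amz2, had 310.1 in the optimal list, 152 in replicate 1 and 158 in replicate 2. The weakest, at chr3:87576879-87577188 between genes, had 13.4 in the optimal list, 6.77 in replicate 1 and 4.29 in replicate 2. The other 13 groups held 52 to 449 peaks, and the medians over all 15 groups ran from 32.2 in group 9 to 70.5 in groups 6 and 15.

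Several groups shared 1 flank. The centres of groups 1 and 10 were identical at 90% of the 40 bases downstream of the motif and at 25% of those upstream. Groups 2 and 4 were identical at 80% of the downstream bases, and groups 2 and 8 at 77.5% of the upstream bases. Since gaps were not allowed, copies that differ by an inserted or lost base count as different on that side.

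Copies of the groups were bound to very different degrees. Masked motif matches anywhere in the distal genome were assigned to the group whose centre they matched best, at 60% or more. Group 1 had 50163 such copies and 3.71% of them were bound. Group 2 had 3407 copies and 49.6% were bound. In the other 13 groups the share ran from 5.33% in group 9 to 58.7% of 358 copies in group 8, and it was 8.78% of the masked matches in no group. The centres were chosen among bound peaks, so these shares are descriptions of the groups and no test of them. With single-copy words the shares were 8.40% in group 1 and 49.7% in group 2.

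At the same motif score the groups differed too. At scores of 14 to 16, 3.78% of 24782 copies of group 1 were bound, against 55.2% of 554 copies of group 2 and 18.8% of 8333 matches in no group. With single-copy words these shares were 9.70% in group 1, 55.7% in group 2 and 23.2% in no group. At scores of 20 to 22 the share was 67.0% of 91 copies in group 1 (56.9% to 75.8%), 85.4% of 213 in group 2 (80.1% to 89.6%) and 76.5% of 1006 in no group. The group 1 interval overlapped that of matches in no group and not that of group 2.

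**Figure D5:**
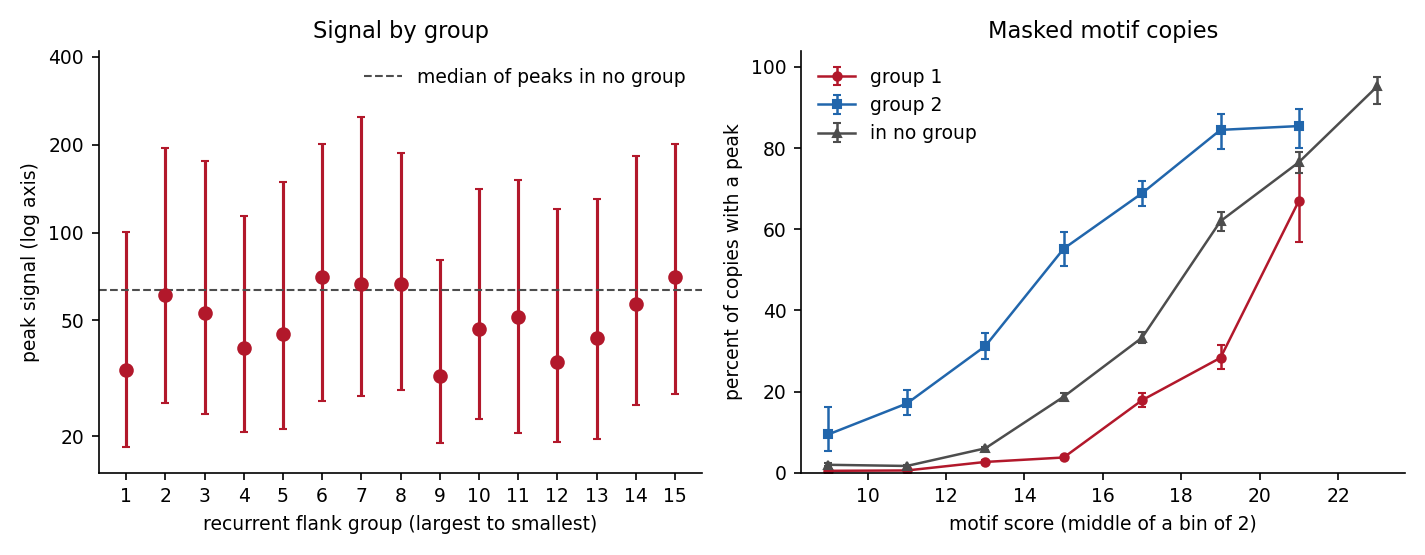
Left, median signal of the peaks of each recurrent flank group (bars from the 10th to the 90th percentile, log axis), with the median of masked peaks in no group (63.6) dashed; right, the percent of masked motif copies with a peak by motif score, with 95% Wilson intervals, for groups 1 and 2 and for matches in no group (bins of at least 20). Group 2 copies lie above group 1 copies in each bin drawn.

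The most frequent base at each motif position gave the following words for the copies of the 2 largest groups.
Group 1: ACACCAGAAGAGGGCATCA
Group 2: AGGCCAGAAGAGGGCATCA
Of the 9165 group 1 copies with exactly this word 2.28% were bound, against 73.3% of the 191 group 2 copies with exactly theirs. These 2 shares were not split by single-copy words. Such words were present at 9833 of all 50163 group 1 copies and at 3094 of all 3407 group 2 copies. Positions are counted from 1 at the 5′ end of the motif, and a change names the most frequent base of the group first. Group 1 copies with A3G were bound in 20.7% of 1948 cases, against 3.56% of the 33277 copies with A at that position. Those with C2G were bound in 19.7% of 675 cases, against 2.78% of the copies with the usual base. With single-copy words A3G went with 20.7% bound against 7.05%, and C2G with 20.8% against 6.26%. Other changes went with fewer bound copies. G12A was bound in 0.41% of 1451 copies against 3.82%, C15T in 0.681% of 3817 against 4.69%, and C15A in 0.699% of 8444 against 4.69%. With single-copy words the gap of C15A was narrower, with 4.10% of 536 copies bound against 9.48%. The share was then 1.48% of 946 copies with C15T, against 9.48%, and 0.574% of 523 copies with G12A, against 9.03%.

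In group 2 the changes C4T and C15T went with the lowest bound shares. C4T was bound in 19.8% of 288 copies, against 52.8% of those with the usual base, and C15T in 30.9% of 611, against 54.1%. T17C went with more bound copies, 58.2% of 790 against 45.002%. In all, 17 of 38 changes in group 1 and 2 of 8 in group 2 (those with at least 200 copies) went with a higher bound share over all copies. Some directions in group 1 turned with single-copy words. A16G went from 2.78% of 18188 copies against 4.28% to 9.13% against 8.32%. A6T went from 3.85% against 3.72% to 4.62% against 8.53%, and C18G from 4.73% against 3.79% to 8.15% against 9.33%. Each change was counted over copies that may differ elsewhere as well, and no test was made.

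Replicates gave the masked peaks with somewhat less overlap. A summit within 50 bases was present in the list of replicate 1 for 97.2% of masked and 98.0% of unmasked peaks, and in that of replicate 2 for 97.6% of masked and 98.1% of unmasked peaks. Among the 73465 strongest peaks of both replicate lists 78.8% of masked and 85.7% of unmasked peaks were found, a difference of -6.89 points (log10 adjusted p -75.1, Fisher's exact test, lower on 19 of 19 chromosomes). The conservative list held the interval of 84.3% of masked and 89.3% of unmasked peaks, a difference of -4.95 points (log10 adjusted p -50.03, Fisher's exact test, lower on 19 of 19 chromosomes). Both gaps were wider with deeper masking. Peaks with at least 80% of the window masked, set against unmasked peaks with no masked base there, differed by -15.1 points in the share found in both replicates and by -10.6 in the share in the conservative list. With completely masked windows left out, masked peaks differed from all unmasked distal peaks by -3.75 points in the first share and by -2.99 in the second. Across peaks the signal of the replicates ranked alike, with a Spearman rho of 0.91 over 12959 masked and 0.97 over 38477 unmasked peaks. Above the median signal of the optimal list both shares were near their ceiling: 99.8% of masked and 99.9% of unmasked peaks were among the strongest of both replicates, a difference that did not pass the test (log10 adjusted p -0.80, Fisher's exact test), and 100% of masked and 99.99% of unmasked peaks were in the conservative list.

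Masked peaks lay in introns more often than unmasked distal peaks, although masked sequence does so less. Introns held 58.0% of masked and 53.3% of unmasked peaks, a difference of 4.78 points (log10 adjusted p -21.5, Fisher's exact test, higher on 18 of 19 chromosomes). The difference was 8.27 points between peaks with at least 80% of the window masked and unmasked peaks with no masked base there. Of the distal bases 37.7% of the masked and 47.4% of the unmasked ones are intronic. The nearest TSS was a median of 8.33 kb from masked and 10.6 kb from unmasked peaks. In introns of protein-coding genes on 1 strand, the motif stood on the gene's strand in 52.7% of 6522 masked peaks (51.5% to 54.0%) and in 47.6% of 13508 unmasked peaks (46.8% to 48.5%). Masked peaks were densest on chromosome 11, with 33.8 per Mb of masked distal sequence, and sparsest on chromosome 14, with 12.04 per Mb. Distal peaks as a whole, masked or not, differed in the same direction between these chromosomes. They numbered 3969 in 105518551 distal bases of chromosome 11 and 2131 in 112299190 of chromosome 14. At the edges of the rule the median signals on both sides are given with no test. The 166 masked peaks up to 100 bases beyond the limit of 1 kb from a TSS had a median signal of 45.9, against 53.9 in the 187 left out within 100 bases short of it. The peaks left out there could also lie in coding sequence or untranslated regions. The 2176 masked summits within 5 bases of a mask edge had 54.7, against 56.6 in 1834 unmasked summits within 5 bases of one.

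A CpG dinucleotide, where methylation of the cytosine can hinder CTCF, was less frequent in the motifs of masked peaks. It was present in 26.1% of masked and 35.2% of unmasked peaks with a motif. Masked peaks had nearly the same median signal with a CpG (54.4) and without (52.4), whereas unmasked peaks had 229 with and 130 without. Short words were searched in the 150 bases on each side of the motif, on both strands, and a match may overlap the motif. CACACACA, a dinucleotide repeat, was present in 17.7% of masked peaks with a motif, against 9.38% of unmasked ones and 10.1% of all masked genomic matches. It stood on the strand opposite to the motif in 14.2% and on the motif strand in 4.07% of the masked peaks. In unmasked peaks these shares were 5.35% opposite and 4.25% on the motif strand. GCNNAGNGG was the word searched for the A box of RNA polymerase III promoters. It was present in 48.4% of group 1 and 21.7% of group 2 peaks. The share was 27.1% of masked and 16.9% of unmasked peaks with a motif, and 33.3% of all masked matches. In group 1 it stood opposite to the motif in 47.4% and on the motif strand in 1.45% of peaks. In unmasked peaks these shares were 9.09% opposite and 8.51% on the motif strand. GTTCGANNC, the word searched for the B box, was present in 2.67% of group 1 and 2.49% of group 2 peaks. The share was 1.77% of masked and 0.88% of unmasked peaks with a motif, and 2.15% of all masked matches. Whether a matching word belongs to a promoter was not tested.

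Lists of genes of the gut had masked peaks nearby at shares on either side of that of all protein-coding genes. Over all 20807 protein-coding genes of chromosomes 1 to 19, 12346 (59.3%) had a masked summit within 50 kb of a TSS, and the lists of tissue genes are read against that share. Among transcription factors of the intestinal epithelium 13 of 24 genes had one (54.2%). Their strongest example was a peak at chr2:163597739-163598006, 47.791 kb downstream of a start site of Hnf4a, the nuclear receptor of the enterocyte programme. It belonged to group 3, with a signal of 311 in the optimal list, 152 in replicate 1 and 159 in replicate 2. The start site nearest to this peak was that of Ttpal, 4.44 kb away. A group 2 peak at chr5:147331624-147331845 stood 24.466 kb upstream of Cdx2, the homeobox factor of intestinal identity, in an intron of Flt3, with a signal of 199 in the optimal list, 101.3 in replicate 1 and 97.7 in replicate 2.

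Genes of enterocytes, for the brush border and for lipid handling, had a masked peak in 19 of 26 cases (73.1%). The strongest stood 30.29 kb upstream of Myo1a, the myosin of microvilli, at chr10:127674635-127675178, with a signal of 577. The next stood 38.364 kb upstream of Dgat1, an enzyme of triglyceride synthesis, with 474. Nearest to the Myo1a peak was a start site of Gm16230 (1.844 kb), and nearest to the Dgat1 peak that of Slc52a2 (11.353 kb). Secretory lineage genes had 12 of 23 (52.2%), and both named peaks stood upstream, 35.487 kb from Agr2, a protein disulfide isomerase of goblet cells (signal 182), and 5.814 kb from Neurog3, the factor that specifies enteroendocrine cells (signal 126). Crypt stem cell and Wnt genes had 12 of 21 (57.1%), led by Znrf3, a ligase that removes Wnt receptors, and Ephb2, a receptor that positions crypt cells, with 207 and 122.

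Smooth muscle and mesenchyme genes had a masked peak in 14 of 23 cases (60.9%), led by Actg2, the gut smooth muscle actin, with a group 2 peak of signal 282. That peak lay 14.212 kb downstream of Actg2 and nearer to Dguok (5.721 kb). Neuron and glia genes had 9 of 20 (45%), led by S100b, a glial calcium-binding protein, with a group 1 peak of signal 132 that lies in an intron of Prmt2. Blood and immune genes had 12 of 22 (54.5%), among them Cd3e, a subunit of the T cell receptor complex, with 367, and Hbb-bs, an adult beta globin, with 205. The first peak lay 35.372 kb downstream of Cd3e and nearer to Ube4a (1.415 kb). The other lay 20.66 kb downstream of Hbb-bs and nearer to Hbb-bt (6.931 kb). Of imprinted genes 20 of 38 (52.6%) had one, and a single peak of signal 368 at chr7:143506757-143507043 was the strongest for both Cdkn1c and Phlda2, growth-restricting genes of the same domain. These shares lay between 45% and 73.1% around the 59.3% of all genes, in lists of 20 to 38 genes. The side of that share on which a list lay changed with the setting. With the conservative list the epithelial transcription factors had 66.7% and the smooth muscle list 56.5%, against 58.4% of all genes. Within 10 kb the enterocyte list had 15.4% and the crypt list 33.3%, against 25.4% of all genes. Within 100 kb the epithelial transcription factors, crypt, neuron and blood lists, all below the share of all genes at 50 kb, lay above it. The gene families of chemosensation stood far below. Of 1127 olfactory receptor genes 107 (9.49%) and of 326 vomeronasal receptor genes 9 (2.76%) had a masked peak within 50 kb. Any distal peak was near 86.4% of all protein-coding genes, and near 94.7% to 100% of the genes in each of the tissue and imprinted lists. For the olfactory genes this share was 31.7%, and for the vomeronasal genes 16.3%. These receptor genes lie in clusters and share peaks, so they are not independent of each other.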

How the data were processed

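CTCF ChIP-seq peaks of 2 replicates (1 group) were used as deposited: a list per replicate, 1 from the pooled alignments, and optimal and conservative lists thresholded on the irreproducible discovery rate, on mm10 per the labels. The signal of each peak is the authors' deposited enrichment value with no stated normalization, and it ranks peaks within a list. No result used the −log10 q-value or the score that the authors deposited; the deposited offset gave the summit. For the aligner, the caller, the read depth and any control: not given in the sources used here. No control was analysed here.

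Case at the summit was read from the RefSeq copy of GRCm38.p6 (mm10), whose masking tool is not given in the sources used here. The motif matrix used 6 rounds and a pseudocount of 1. Shares were compared by Fisher's exact test, adjusted over 6 tests, with Wilson and Newcombe 95% intervals. Without a replicate meant the 73465 strongest peaks of the other. Named regions were the 12 strongest peaks, the strongest, central and weakest of the 4 largest groups, and in each gene list the 2 genes with the strongest masked peak; not all of these are described. The members and lists were chosen with earlier results of these data known. Python 3.11.15 with numpy 2.4.6, scipy 1.17.1, pandas 2.3.3, numba 0.67.0 and matplotlib 3.10.9 was used, and the statistics were tested on simulated data.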

Additional observations from a re-analysis of the deposited data

How the results depend on the processing

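Of 51 tested alternatives 49 kept the direction and the side of the threshold, but some sizes moved. With at least 80% of the window masked, set against none masked, the signal difference was -38.5 points in place of -22.9, the conservative list difference -10.6 in place of -4.95, that of both replicates -15.1 in place of -6.89 and that of introns 8.27 in place of 4.78. Above the median signal the motif share difference was 7.67 in place of 16.6. The 2 that did not were both among peaks above the median signal: the share in the conservative list differed by 0.0088 points (100% of masked, 99.99% of unmasked) in place of -4.95, and the share found in both replicates by -0.087 in place of -6.89. Nearly all peaks of that strength are in each list. A rule of at least 80% of the window masked, whatever the summit base, gave 5466 peaks, 5280 of them among the 13635 masked peaks. Of the masked peaks 9038 lay over 5 kb from a TSS and 4666 above the median signal. Leaving out 1 replicate gave 13265 to 13525 masked peaks, motif share differences of 16.5 to 16.6 points, signal differences of -23.3 to -22.2, intron differences of 4.30 to 4.34 and bound share differences of -8.46 to -8.23. The share of motif-bearing masked peaks in a recurrent group was 71.1% at 50% identity (5.34% of unmasked), 25.1% at 70% (0% of unmasked) and 71.8% with 20 bases on each side (5.10% of unmasked), against 50.3% (1.70% of unmasked); the number and makeup of groups follow from these settings. The share of genes near a masked peak was 25.4% within 10 kb, 73.1% within 100 kb and 58.4% with the conservative list, against 59.3%. The bound share difference was -36.5 points at the threshold reached by 1% of windows (34.8% masked, 71.3% unmasked) and -2.56 with single-copy words, against -8.27. In the pooled list, without the thresholding, 32.0% of masked and 29.3% of unmasked matches with single-copy words had a peak, the opposite order; the cause was not tested. Leaving out completely masked windows or group 1 was tried after seeing the data. No paired analysis was possible because the series has 1 group.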
